A study of Mus musculus with 11 samples.

Results

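The 6 peroxiredoxins (Prdx1, Prdx2, Prdx3, Prdx4, Prdx5 and Prdx6), the 3 superoxide dismutases (Sod1, Sod2 and Sod3) and catalase (Cat) were followed in the testis of mice that lack an iron regulatory protein. These 10 genes were taken by name from the 24411 genes of the count table, and all 10 passed the filter on low counts in each of the 3 comparisons made. RNA from whole, decapsulated testes of mice at 20 weeks of age was sequenced, without any treatment, to ask how the loss of Irp1 alters gene expression related to spermatogenesis. The table held 4 WT samples (C57Bl/6J), 4 Irp1-/- samples with a global knockout of Aco1, the gene of Irp1, and 3 Irp2-/- samples with a global knockout of Ireb2, the gene of Irp2. The Irp1-/- line carried the Aco1tm1Roua allele on a C57Bl/6J background, and its WT controls were littermates from heterozygous matings. The origin of the Irp2-/- line is not given in the sources used here, nor is it stated that each sample came from a separate mouse, so p-values measure the spread between these samples only.

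Superoxide dismutases convert superoxide, which leaks from the respiratory chain and from NADPH oxidases, into hydrogen peroxide. Catalase breaks hydrogen peroxide down in peroxisomes, and peroxiredoxins reduce it with a reactive cysteine that thioredoxin then restores, while free iron can turn hydrogen peroxide into hydroxyl radicals. Developing germ cells and sperm are sensitive to such oxidants because their membranes are rich in polyunsaturated lipids and late spermatids repair DNA poorly.

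The 10 genes lie on chromosomes 1 (Prdx6), 2 (Cat), 4 (Prdx1), 5 (Sod3), 8 (Prdx2), 16 (Sod1), 17 (Sod2), 19 (Prdx3 and Prdx5) and X (Prdx4) of GRCm38. Prdx1 is the only one on the chromosome of Aco1, at a distance of 76.5 Mb, and none lies on that of Ireb2, chromosome 9.

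The peroxiredoxins act through their reactive cysteine, and 30 coding bases around its codon are shown for each because they show both what the members share and how far reads can tell them apart. The sequences are from the principal GENCODE transcripts of mouse (release M21, GRCm38), read in the coding direction, with the cysteine codon in capitals.
Prdx1: tttacttttgtgTGTcccacggagatcatt
Prdx2: ttcacttttgttTGCcccacggagatcatc
Prdx3: ttcacatttgtgTGTcctacagaaattgtt
Prdx4: ttcacctttgtgTGTccaactgaaatcatc
Prdx5: tttacacctggcTGTtctaagacccacctg
Prdx6: tttaccccagtgTGCaccacagaacttggc
Prdx6b: tttacccctgtgTGTaccacagaacttggt
Prdx2 has the same base as Prdx1 at 26 of the 30 positions, Prdx4 at 24 and Prdx3 at 23, whereas Prdx5 matches Prdx1 at 15 and Prdx6 at 17. Over the whole coding sequence, Prdx1 and Prdx2 were identical at 69.7% of aligned positions and Prdx3 and Prdx4 at 58.6%, and every other pair of the 6 members lay between 47.2% and 52.5%. Prdx6b, a close paralog of Prdx6 that is counted as its own gene, shares 27 of the 30 bases with Prdx6 and 92.9% of the coding sequence. Reads of 50 bases can still separate the pair over most of their length, since 7 of the 2338 words of 50 bases in the Prdx6 transcript (0.299%) also occur in Prdx6b.

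Copies that the count table does not list could take reads from some members. Of the 50-base words of the Sod1 transcript 23.1% also occur in Gm8566, of those of Prdx1 10.9% occur in Gm21399, Gm7204 or Gm15974, and of those of Prdx2 8.96% occur in Tdpx-ps1, with a few of these also in Prdx2-rs3. How reads with several matches were counted is not given in the sources used here, so the levels of these 3 genes are uncertain to that extent. Prdx3, Prdx4, Prdx5, Sod3 and Cat share none of their words with another gene, and Sod2 shares 1.43%.

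The samples held 15902473 to 22451417 counts each, and replicates of each genotype differed by more than sampling noise (chi-square per degree of freedom from 1.97 to 6.75 over 15 pairs). The targeted genes followed the labels. Aco1 was between 7.94 and 9.15 CPM (read counts scaled to one common library size by TMM) in Irp1-/- testes, below the 9.78 to 12.9 CPM of WT (log2 fold change -0.45, edgeR adjusted p = 0.0158). Ireb2 was between 61.6 and 63.0 CPM in Irp2-/- testes and between 131 and 144 CPM in WT (log2 fold change -1.16, edgeR adjusted p = 2.84e-13). Markers of germ cells were detected in every sample and dominated by elongating spermatids, whereas 8 epididymal markers summed to at most 0.502 CPM in any sample.

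In WT testis, Sod1, the cytosolic copper-zinc enzyme, had the highest level per length of the 10 genes. It reached 263 ± 5.79 CPM per kb of transcript (SD, n = 4), ahead of Prdx4, the peroxiredoxin of the endoplasmic reticulum, at 67.9 ± 2.34 CPM per kb. Prdx6, Prdx5, Prdx1, Prdx2 and Sod2 followed in that order from 39.7 ± 1.14 down to 13.1 ± 0.606 CPM per kb of transcript (SD, n = 4). Sod3 at 9.27 ± 1.17 and Prdx3 at 8.88 ± 1.90 CPM per kb overlapped in their ranges over the 4 samples and did not differ beyond their spread, and Cat was lowest at 4.39 ± 0.429 CPM per kb. All other neighbours in this order had ranges that did not overlap.

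The order depended on the length used. Per kb of coding sequence Sod1 stayed highest (363 ± 7.99 CPM per kb, SD, n = 4) and Cat lowest (7.24 ± 0.708), but Sod2, whose principal transcript of 5861 bases codes with only 669, moved to the third place at 115 ± 5.31 CPM per kb and Prdx4 to the fifth at 81.5 ± 2.81. On this scale only Prdx2 and Sod3 overlapped among neighbours. Prdx6b exceeded Prdx6 in every sample, with 676 against 141 CPM per kb of coding sequence in WT as means, and its CPM was 4.63 to 5.13 times that of Prdx6 in WT, 4.56 to 4.67 times in Irp1-/- and 4.59 to 5.10 times in Irp2-/- testes.

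**Figure D1:**
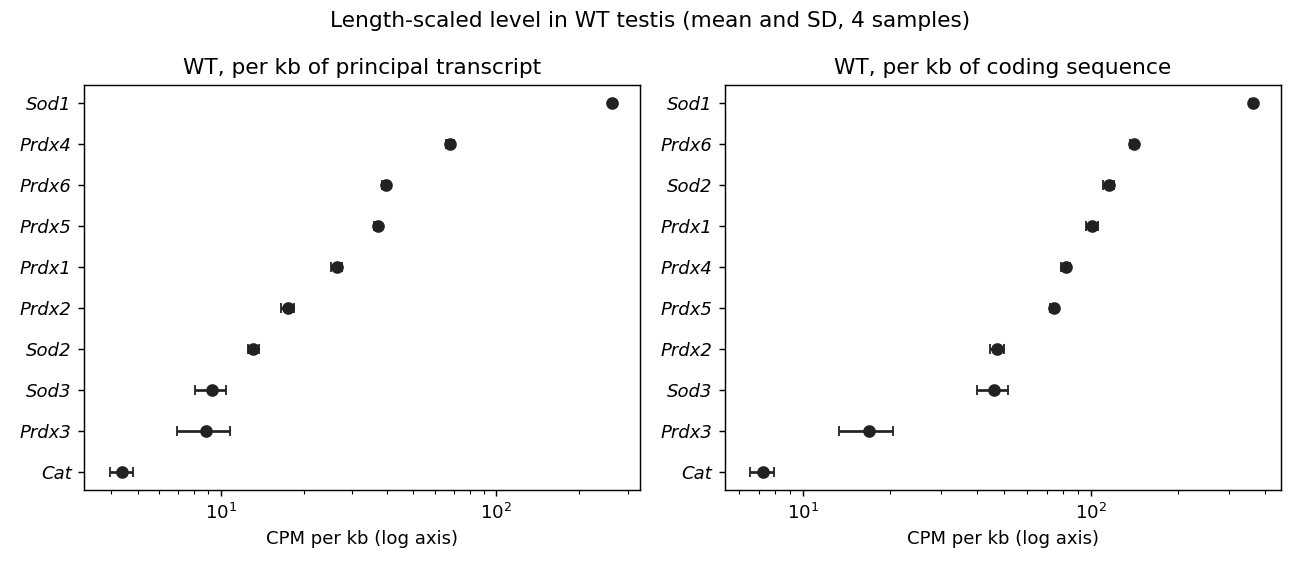
Mean level of each enzyme in WT testis with its SD over 4 samples, in CPM per kb of the principal transcript (left) or of its coding sequence (right), on log axes. Sod1 stands highest and Cat lowest on both scales, at 263 and 4.39 CPM per kb of transcript, while on the coding scale Prdx4 stands lower in the order and Sod2 higher.

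Within each genotype the levels were tight for most members. The coefficient of variation between WT samples lay between 2.20% (Sod1) and 9.78% (Cat) for 8 of the 10 genes, and was 12.6% for Sod3 and 21.4% for Prdx3, where counting alone would give 4.07% and 6.61%. Prdx4 varied more in the knockouts, with 10.4% in Irp1-/- and 9.91% in Irp2-/- against 3.45% in WT testes. Counting alone would give 2.69%, 2.90% and 2.93% there. Prdx3, the mitochondrial peroxiredoxin, was at 10.5, 11.6, 13.5 and 16.9 CPM in the 4 WT samples. The 4 Irp1-/- samples lay inside that range, at 12.7, 14.9, 15.3 and 15.9 CPM, as did the 3 Irp2-/- samples at 12.4, 12.5 and 13.9 CPM. WT replicate 4 was thus the highest of all 11 samples for this gene and WT replicate 1 the lowest.

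Sod3, the extracellular superoxide dismutase, also varied most in WT. WT samples were at 30.1, 32.8, 35.5 and 40.3 CPM, whereas the Irp1-/- samples were all between 36.6 and 38.6 CPM and the Irp2-/- samples between 36.7 and 39.7 CPM. Both knockouts fell within the WT range, and only WT replicate 3 exceeded them.

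**Figure D2:**
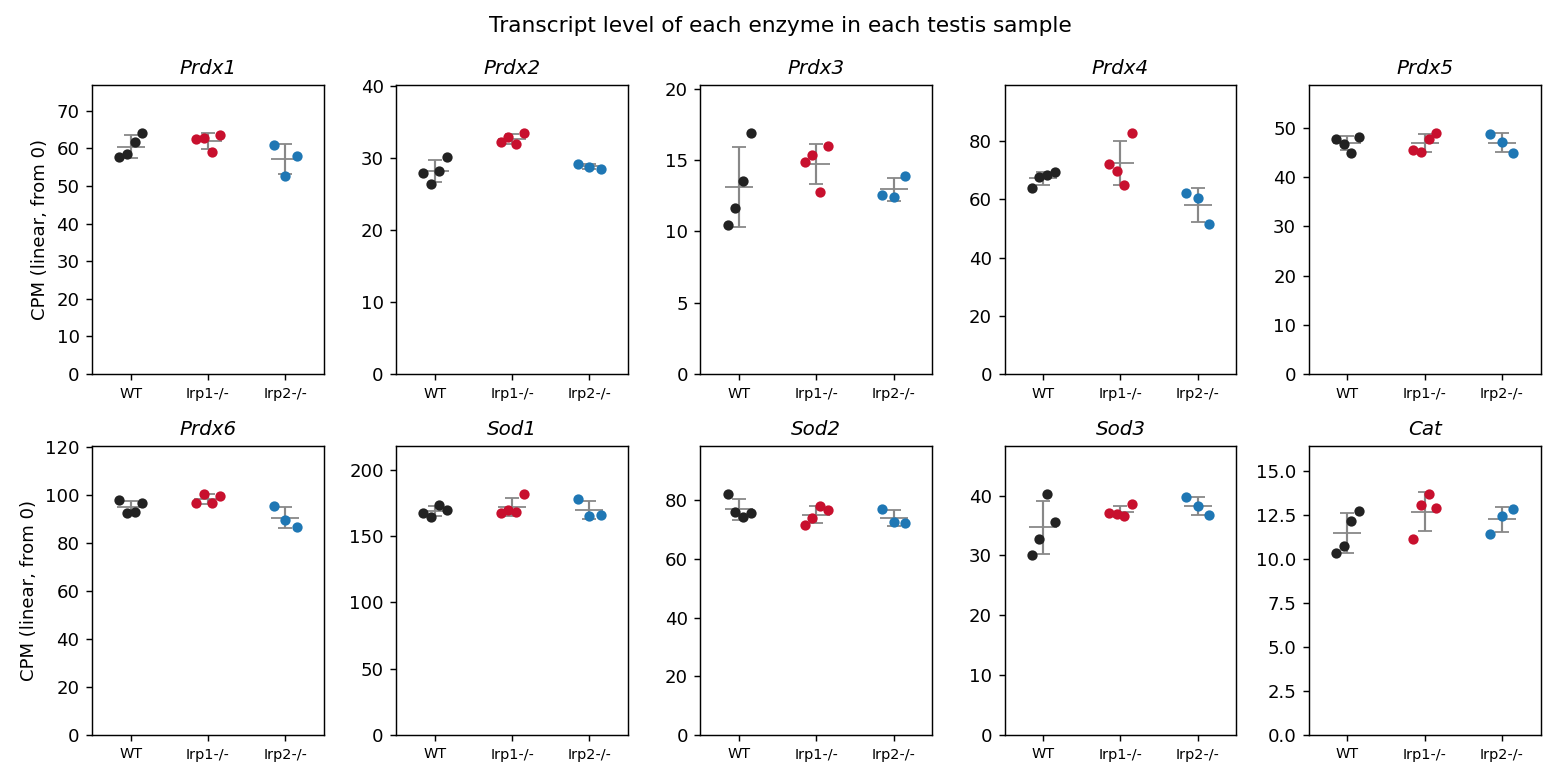
CPM of each enzyme in every testis sample on linear axes that start at 0, with points for WT (black), Irp1-/- (red) and Irp2-/- (blue) and grey bars for the mean and SD. Prdx2 in Irp1-/- (32.0 to 33.5 CPM) lies above all WT samples, Prdx4 in Irp2-/- (51.5 to 62.1 CPM) below all WT samples, and the spread of Prdx3 and Sod3 is widest in WT.

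Loss of Irp1 left every one of the 10 transcripts short of the threshold, with 0 called at an adjusted p under 0.05, where 1.02% of the 16002 genes tested were called (edgeR). DESeq2 called 0 as well, and at an unadjusted p under 0.05 edgeR counted 1 of the 10, Prdx2, against 12.1% of all genes. The log2 fold changes were above 0 for 8 genes and below 0 for 2, with a median of 0.074 against -0.00079 over all genes tested, of which 49.7% were above 0. In bulk tissue, a change in the number of cells of a type and a change in RNA per cell cannot be told apart.

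Prdx2, a cytosolic peroxiredoxin that is very abundant in red blood cells, came nearest to a difference. It was at 32.0, 32.3, 33.0 and 33.5 CPM in the 4 Irp1-/- samples and at 26.4, 27.9, 28.3 and 30.2 CPM in the 4 WT samples. The lowest Irp1-/- sample was above the highest WT sample, a pattern seen in this direction in 3.37% of all genes tested. This amounted to a log2 fold change of 0.21 (95% interval 0.092 to 0.32) with an adjusted p of 0.0733 (edgeR), a fold of 1.15. Leaving out single samples moved the log2 fold change between 0.18 and 0.24 and the adjusted p between 0.0580 and 0.244 (edgeR).

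Prdx1, the close relative of Prdx2 in sequence and site, gave no such separation. Its samples ranged from 59.0 to 63.6 CPM in Irp1-/- and from 57.6 to 64.0 CPM in WT testes, with a log2 fold change of 0.032 (95% interval -0.065 to 0.13). Prdx4 was at 65.0, 69.7, 72.2 and 82.7 CPM in Irp1-/- and at 63.9, 67.5, 68.2 and 69.2 CPM in WT testes. The ranges overlapped, and the log2 fold change of 0.10 (edgeR adjusted p = 0.513) was 0.036 without Irp1-/- replicate 7, the highest sample. Prdx3 had a log2 fold change of 0.16, and its interval from -0.10 to 0.42 was the widest of the 10.

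Prdx5, found in mitochondria, peroxisomes and cytosol, ranged from 45.1 to 48.9 CPM with Irp1 lost and from 44.9 to 48.2 CPM in WT, and its log2 fold change was -0.0060 (95% interval -0.11 to 0.094). Prdx6, which reduces phospholipid peroxides with glutathione as its partner, ranged from 96.5 to 100.4 CPM with Irp1 lost and from 92.4 to 97.9 CPM in WT, and its log2 fold change was 0.047 (95% interval -0.036 to 0.13). Both genes overlapped between the genotypes.

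The dismutases and catalase overlapped too. Sod1 ranged from 167 to 182 CPM in Irp1-/- and from 165 to 174 CPM in WT testes, with an interval of the log2 fold change from -0.062 to 0.10. Sod2, the manganese enzyme of mitochondria, had an interval from -0.13 to 0.053, and Sod3 one from -0.035 to 0.24. Cat, a heme enzyme, was at 11.1 to 13.7 CPM in Irp1-/- and 10.3 to 12.7 CPM in WT testes, and its interval ran from -0.046 to 0.33. Apart from Prdx2, the adjusted p of the 10 genes lay between 0.513 and 0.980 (edgeR), and none of their intervals reached beyond -0.13 or 0.42 on the log2 scale.

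**Figure D3:**
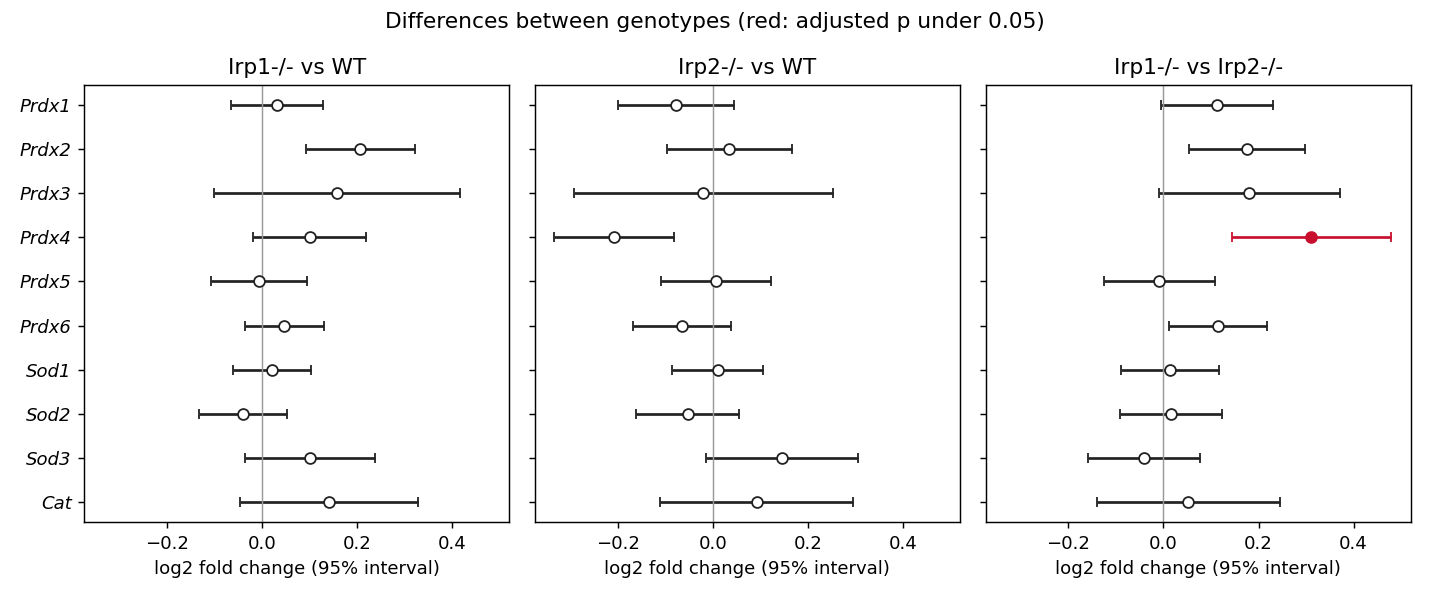
Log2 fold change of each enzyme (points) with its 95% interval (bars) from edgeR, for Irp1-/- against WT, Irp2-/- against WT and Irp1-/- against Irp2-/-, on one shared axis. Filled red marks an adjusted p under 0.05, which Prdx4 alone reached, at 0.31 between the knockouts.

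Loss of Irp2 gave 0 calls among the 10 genes as well, where 1.21% of the 16154 genes tested were called (edgeR), and DESeq2 again called 0. At an unadjusted p under 0.05 the count was 1, Prdx4, against 9.42% of all genes. The log2 fold changes were split 5 above and 5 below 0, with a median of -0.0064 against 0.0033 over all genes tested, of which 51.3% were above 0. This comparison uses the same WT samples as that of Irp1-/- with WT, so their values are not independent.

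Prdx4 is secreted or retained in the endoplasmic reticulum, where it couples hydrogen peroxide to the oxidative folding of proteins, and mice without it are known for testicular atrophy. It was at 51.5, 60.5 and 62.1 CPM in the 3 Irp2-/- samples, all below the lowest of the 4 WT samples at 63.9 CPM. Such a separation toward lower values was found in 4.74% of all genes tested. The log2 fold change was -0.21 (95% interval -0.33 to -0.080) with an adjusted p of 0.121 (edgeR). It was -0.13 (edgeR adjusted p = 0.542) without Irp2-/- replicate 3, the lowest sample, and -0.26 (edgeR adjusted p = 0.0269) without Irp2-/- replicate 1, the highest.

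For the other 9 genes Irp2-/- and WT samples overlapped. Sod3 had the largest log2 fold change among them, 0.15 (95% interval -0.014 to 0.31), followed by Cat at 0.093 and Prdx1 at -0.077. Prdx2, which had separated Irp1-/- from WT testes, was at 28.5, 28.8 and 29.2 CPM in Irp2-/- testes, inside the WT range, with a log2 fold change of 0.035 (95% interval -0.097 to 0.17). Adjusted p-values of these 9 genes lay between 0.601 and 0.988 (edgeR).

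Set against each other, the knockouts differed in Prdx4. It was higher in Irp1-/- than in Irp2-/- testes, with means of 72.4 ± 7.50 CPM (SD, n = 4) and 58.0 ± 5.75 CPM (SD, n = 3), and the lowest Irp1-/- sample (65.0 CPM) was above the highest Irp2-/- sample (62.1 CPM). The log2 fold change was 0.31 (SE 0.079, 95% interval 0.14 to 0.48, edgeR adjusted p = 0.0325), a fold of 1.24, and DESeq2 gave an adjusted p of 0.00594. This was 1 call among 10 genes, where 4.69% of the 16281 genes tested were called, and 2.92% were called as higher in Irp1-/-. The call was lost without Irp1-/- replicate 1 or 2 (adjusted p = 0.0797 and 0.0535, edgeR) and without Irp2-/- replicate 2 or 3 (0.0900 and 0.0857, edgeR), while the log2 fold change stayed between 0.24 and 0.37 whichever sample was left out.

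Prdx4 lies on the X chromosome (GRCm38, X:155323918-155342272), and X-linked genes moved with it. Between the knockouts 641 tested genes of the X chromosome had a median log2 fold change of 0.12, against -0.0051 for 14825 genes mapped elsewhere, and 22.5% of them were at or above the value of Prdx4, against 6.24% of the others. Their median was 0.10 for Irp1-/- against WT, as large as the value of Prdx4, and -0.036 for Irp2-/- against WT. The part of this shift in the difference of Prdx4 was not tested. Prdx4 also has a testis transcript with its own first exon, which counts per gene do not separate.

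Prdx2 and Prdx6 were the other genes whose Irp1-/- samples all lay above the Irp2-/- samples, so that 3 of 10 genes separated upward, where 7.9% of all genes tested did. The log2 fold change was 0.18 for Prdx2 (edgeR adjusted p = 0.0988) and 0.12 for Prdx6 (edgeR adjusted p = 0.238). For Prdx6 the samples were at 96.5, 96.7, 99.4 and 100.4 CPM in Irp1-/- and at 86.6, 89.7 and 95.2 CPM in Irp2-/- testes, with Irp2-/- replicate 1 close to the lowest Irp1-/- samples. At an unadjusted p under 0.05 these same 3 genes were counted, against 16.3% of all genes.

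Prdx1 and Prdx3 had log2 fold changes of 0.11 and 0.18 between the knockouts, with intervals that ran from just under 0 to 0.23 and 0.37. Sod1, Sod2 and Prdx5 stood near 0, at 0.014, 0.016 and -0.0089, and none of their intervals reached beyond -0.13 or 0.12. Sod3 was at -0.041 and Cat at 0.052. Over all 10 genes 8 were above 0, where 49.4% of all genes tested were, and the median was 0.082 against -0.0019.

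Genes that serve these enzymes were read from 7 lists of the pathway. Peroxiredoxins are recycled by thioredoxins, thioredoxin reductases, sulfiredoxin and glutaredoxins, and the list of such genes also held sestrins and Gstp1. Of its 12 tested genes 0 were called by edgeR or DESeq2 for Irp1-/- against WT or for Irp2-/- against WT. At an unadjusted p under 0.05 edgeR counted 5 and 1 of them, against 12.1% and 9.42% of all genes tested. Txnrd3, the thioredoxin-glutathione reductase of spermatids, had by far the highest CPM of the list, with means of 591 ± 19.8 in Irp1-/-, 571 ± 33.4 in Irp2-/- and 594 ± 20.9 in WT testes (SD, n = 4, 3 and 4). Txn2, the mitochondrial thioredoxin, stood at 66.1 ± 3.40, 60.9 ± 2.91 and 63.4 ± 2.01 CPM in the same order. Glrx2, a mitochondrial and testis glutaredoxin, stood at 46.8 ± 3.08 CPM with Irp1 lost and at 53.1 ± 1.98 CPM in WT, a log2 fold change of -0.18 that was not called (edgeR adjusted p = 0.0932). Among the 5 genes with an unadjusted p under 0.05 for Irp1-/- against WT, Glrx2 alone was lower in Irp1-/-. In that comparison 8 of the 12 genes were above 0, against 49.7% of all genes tested.

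Between the knockouts 1 of these 12 genes was called by edgeR and 5 had an unadjusted p under 0.05, against 4.69% and 16.3% of all genes tested. Sesn1, a sestrin, was at 21.1 to 23.8 CPM in the 4 Irp1-/- samples and at 25.7 to 27.4 CPM in the 3 Irp2-/- samples. The groups did not overlap, and the log2 fold change was -0.25 (edgeR adjusted p = 0.0342). Between the knockouts DESeq2 gave an adjusted p of 0.0866. The call was also lost in the fit of all 11 samples (0.0532, edgeR) and without Irp1-/- replicate 1, 2 or 7 or Irp2-/- replicate 1 or 2 (0.0581 to 0.131, edgeR).

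Glutathione peroxidases, the other enzymes that reduce peroxides in the testis, held 3 of the 5 genes called in these lists. Of 7 tested genes of this list edgeR called 1 for Irp1-/- against WT, as higher, where 1.02% of all genes tested were called. The list median was 0.24 on the log2 scale. For Irp2-/- against WT 0 were called by edgeR or DESeq2, where edgeR called 1.21% of all genes. At an unadjusted p under 0.05 edgeR counted 4 of the 7 for Irp1-/- against WT, 1 for Irp2-/- against WT and 3 between the knockouts, against 12.1%, 9.42% and 16.3% of all genes tested. Gpx1, the cytosolic selenium enzyme, was at 15.9, 16.8, 17.4 and 21.2 CPM in Irp1-/- and at 11.5, 11.6, 14.3 and 15.4 CPM in WT testes. All Irp1-/- samples were above all WT samples, and the log2 fold change was 0.42 (SE 0.10, edgeR adjusted p = 0.0473). The call was lost in 7 of 14 alternatives, namely in the fit of all 11 samples (edgeR adjusted p = 0.109) and without any one of Irp1-/- replicates 1, 6 and 7 and WT replicates 1, 2 and 4 (adjusted p from 0.0644 to 0.163, edgeR).

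Gpx4, the phospholipid peroxidase that also forms the sperm midpiece capsule, had the highest CPM of the list, at 1124 ± 77.7 in Irp1-/-, 1131 ± 114 in Irp2-/- and 1175 ± 32.8 in WT testes (SD, n = 4, 3 and 4). Its log2 fold changes against WT were -0.066 and -0.051 (adjusted p = 0.574 and 0.881, edgeR). Gsr, which reduces oxidized glutathione, stood at 19.4 ± 0.807 CPM in Irp1-/- and 20.6 ± 0.975 CPM in WT testes and was not called.

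Between the knockouts 2 of the 7 tested genes, Gpx3 and Gpx6, were called as higher in Irp1-/- testes, where edgeR called 2.92% of all genes as higher. Gpx3, the secreted plasma enzyme, was at 5.50, 5.64, 5.97 and 7.24 CPM in Irp1-/-, at 2.48, 2.88 and 3.63 CPM in Irp2-/- and at 3.80, 4.63, 4.79 and 5.34 CPM in WT testes. The 3 genotypes did not overlap, with WT in the middle. The log2 fold change between the knockouts was 1.02 (edgeR adjusted p = 2.44e-04) and stayed called in all 13 alternatives, while those against WT were 0.39 (adjusted p = 0.177) and -0.63 (edgeR adjusted p = 0.0665).

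Gpx6 was at 11.9, 12.5, 13.0 and 14.4 CPM in Irp1-/- and at 8.84, 9.67 and 10.6 CPM in Irp2-/- testes, again without overlap. Its log2 fold change was 0.41 (edgeR adjusted p = 0.0150), and the call was lost without Irp1-/- replicate 1 or 6 or Irp2-/- replicate 2 (adjusted p = 0.0503, 0.0552 and 0.121, edgeR). WT samples of Gpx6 were at 10.6 to 11.1 CPM. Against WT its log2 fold changes were 0.24 in Irp1-/- and -0.17 in Irp2-/- testes (adjusted p = 0.210 and 0.672, edgeR). Of the 7 tested genes of the list 5 were above 0 between the knockouts.

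Sources of superoxide and hydrogen peroxide gave 1 call in all, between the knockouts, where edgeR called 4.69% of all genes tested. At an unadjusted p under 0.05 edgeR counted 3 of the 8 tested oxidant-producing oxidases for Irp1-/- against WT, 0 for Irp2-/- against WT and 1 between the knockouts, against 12.1%, 9.42% and 16.3% of all genes tested. Of these 8 genes, Ncf1, the p47 subunit of the phagocyte NADPH oxidase, was lower in Irp1-/- (0.440 to 0.766 CPM) than in Irp2-/- testes (0.930 to 1.79 CPM). Its log2 fold change was -1.24 (edgeR adjusted p = 0.0168) at levels near 1 CPM, and the call was lost without Irp1-/- replicate 1 or Irp2-/- replicate 2 or 3 (adjusted p = 0.0503, 0.139 and 0.0724, edgeR). DESeq2 gave an adjusted p of 0.0498, just under the threshold. With 10 counts required in every sample, Ncf1 did not pass the filter and was not tested. Against WT, Ncf1 had a log2 fold change of -0.89 in Irp1-/- testes (edgeR adjusted p = 0.168) and of 0.36 in Irp2-/- testes (edgeR adjusted p = 0.803). Noxo1, an organizer of NADPH oxidase, had the highest CPM of that list and stood at 37.3 ± 2.28 in Irp1-/- and 37.8 ± 1.14 CPM in WT testes. None of the 5 tested peroxisomal oxidases was called by edgeR or DESeq2 in any comparison, among them Acox3 at 60.5 ± 1.87 CPM in Irp1-/- and 57.3 ± 3.09 CPM in WT testes, and edgeR counted 0, 0 and 1 of them at an unadjusted p under 0.05.

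Copper delivery to superoxide dismutase, peroxisomal import and the NRF2 axis gave 0 calls in all 3 comparisons with edgeR and with DESeq2. At an unadjusted p under 0.05 edgeR counted 0, 1 and 0 of the 4 copper genes for Irp1-/- against WT, Irp2-/- against WT and between the knockouts, 1, 0 and 1 of the 9 import genes, and 1, 0 and 2 of the 7 genes of the NRF2 axis. The shares over all genes tested were 12.1%, 9.42% and 16.3% in the same order of comparisons. Ccs, the copper chaperone of Sod1, stood at 28.4 ± 0.540 CPM in Irp1-/- and 29.5 ± 2.65 CPM in WT testes. Pex13, part of the dock through which catalase enters peroxisomes, stood at 130 ± 3.08 and 136 ± 7.60 CPM, and Keap1, the repressor of NRF2, at 75.8 ± 3.52 and 70.8 ± 1.66 CPM (log2 fold change 0.094, edgeR adjusted p = 0.394).

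**Figure D4:**
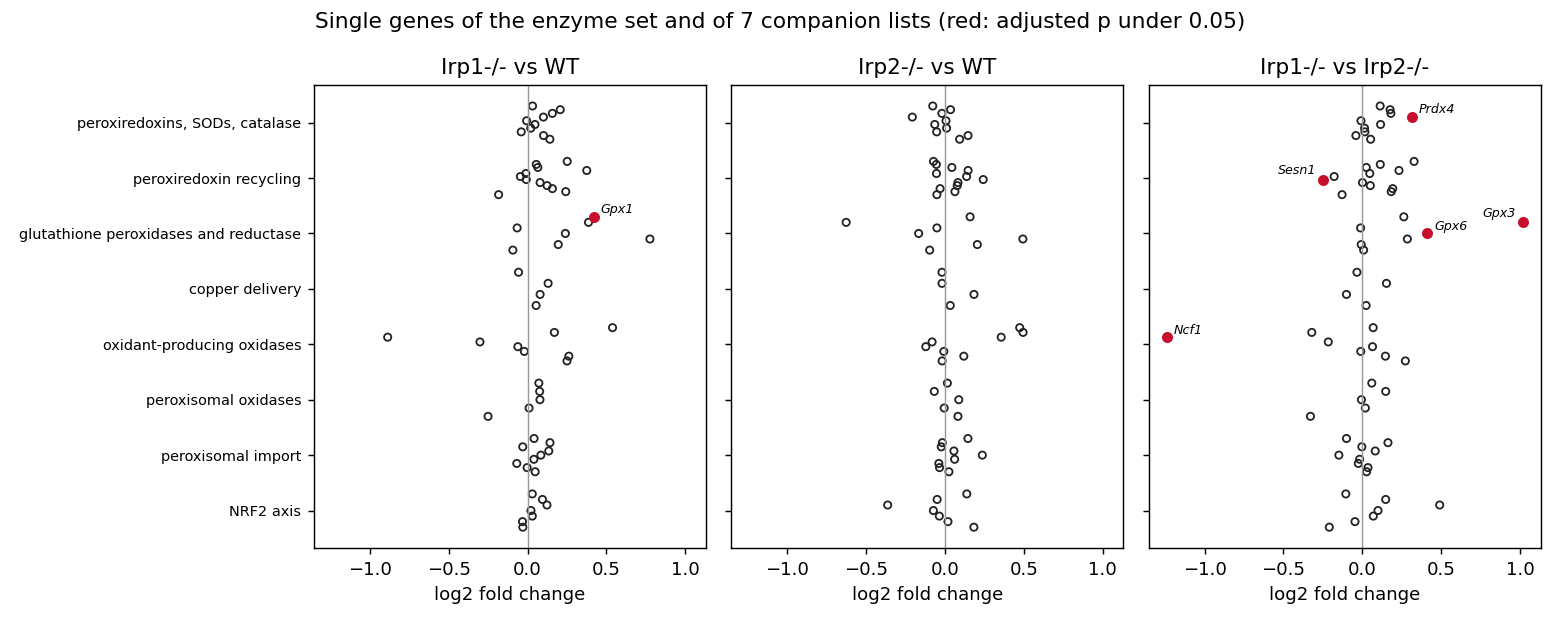
Log2 fold change of every tested gene (circles) of the 10 enzymes and of 7 companion lists in the 3 comparisons, with an adjusted p under 0.05 in filled red and named. Calls are few, and those farthest from 0 are Ncf1 at -1.24 and Gpx3 at 1.02 between the knockouts, while the points of the 10 enzymes stay between -0.21 and 0.31.

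Markers of some somatic cells differed in the same comparisons, while the germ cell lists had 0 calls by edgeR or DESeq2. For Irp1-/- against WT, 8 of 8 Sertoli cell markers were above 0 and 1, Clu, was called. Their summed levels were 1158 to 1300 CPM against 1041 to 1119 CPM in WT, of which Clu gave 934 and 831 CPM as means. Of 8 Leydig cell markers 7 were above 0, with 1 called by edgeR and 2 by DESeq2 (1014 to 1212 against 752 to 1083 CPM). In this comparison edgeR called 1.02% of all genes tested, 12.1% had an unadjusted p under 0.05 and 49.7% were above 0. The other somatic lists had 0 calls there by edgeR and DESeq2, with 4 of 6 peritubular myoid, 6 of 8 macrophage and 1 of 6 endothelial markers above 0 and 0, 2 and 0 of them at an unadjusted p under 0.05 (edgeR). Of 8 spermatocyte markers 2 were above 0 and 0 were called by edgeR or DESeq2 (1123 to 1155 against 1170 to 1222 CPM), with 3 at an unadjusted p under 0.05 (edgeR). Spermatogonia, round spermatid and elongating spermatid markers had 2, 6 and 3 of 8 above 0. At an unadjusted p under 0.05 edgeR counted 0, 0 and 2 of them. Between the knockouts edgeR called 3 of 8 Sertoli markers and 2 of 8 Leydig markers as higher in Irp1-/-, and DESeq2 called 0 and 2 of them, where edgeR called 2.92% of all genes tested as higher. Of 6 endothelial markers 3 were above 0 for Irp2-/- against WT and 3 for Irp1-/- against Irp2-/-. Among them Vwf alone was called, as higher in Irp2-/- than in WT and in Irp1-/- testes. Of 6 peritubular myoid markers 3 were above 0 for Irp1-/- against Irp2-/-, and Actg2 alone was called, as higher in Irp1-/-. For Irp2-/- against WT, spermatogonia, spermatocyte, round spermatid, elongating spermatid and macrophage markers had 5, 3, 2, 0 and 7 of 8 above 0. Between the knockouts the counts were 2, 2, 7, 6 and 2 in the same order. Over all genes tested 51.3% and 49.4% were above 0. At an unadjusted p under 0.05 edgeR counted 1, 0, 0, 1 and 1, then 3, 1, 0, 0 and 0, against 9.42% and 16.3% of all genes. The part of these shifts in the values of Prdx2, Prdx4, Gpx1, Gpx3 and Gpx6 was not tested.

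Prdx2 and Gpx1 are abundant in red blood cells, whose markers were read as well. The summed level of these markers was 37.6 to 57.2 CPM in Irp1-/-, 30.6 to 37.6 CPM in WT and at most 38.5 CPM in Irp2-/- testes, and Hba-a1 was at 19.2 to 30.4 CPM in Irp1-/- and 7.41 to 20.0 CPM in WT testes. Of 7 markers 3 were tested for Irp1-/- against WT, all 3 above 0 and 0 called by edgeR or DESeq2, with 0 also at an unadjusted p under 0.05 (edgeR), and Hbb-bs was at 0 counts in every sample. Their part in the value of Prdx2 was not tested either.

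Prdx2 and Prdx4 were also set against 15938 other genes by the Pearson correlation of log2(CPM + 1) over all 11 samples, given as a description since the points share libraries and genotype groups. Nearest to Prdx2 were Dnajc25 (r = 0.97), Ptprd (r = 0.94) and Mical2 (r = 0.92). Nearest to Prdx4 were Ppp1r2-ps7 (r = 0.97), BC048507 (r = 0.96) and 4930544D05Rik (r = 0.95). Values of r this high are the top of a search over many genes with few samples.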

How the data were processed

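The authors deposited raw read counts per gene, without normalization. Polyadenylated RNA was prepared with the Illumina Stranded mRNA kit, sequenced as paired-end reads of 50 bases, demultiplexed with bcl2fastq (version 2.20.0.422 in the submitters' processing notes) and counted by the nf-core RNA-seq workflow on mm10 (GRCm38). The counting tool is not given in the sources used here, so the counts could be rounded estimates, and trimming, alignment and counting were not repeated. In the column names Irp1-/- replicate 6 bears the letter R and all others L, with no explanation, and no fit used it.

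Counts of the 2 genotypes compared were fitted with edgeR 4.0.16 in R 4.3.3 (filterByExpr, TMM, robust quasi-likelihood test, Benjamini-Hochberg adjustment over all genes tested, threshold 0.05). Standard errors are the log2 fold change over the square root of F, and intervals are 95%. The scripts were tested on simulated data. CPM were scaled with TMM over all 11 samples, and total counts of 15902473 to 22451417 leave counting errors of 1.70% to 7.08% for a single level of these genes. Levels per kb used the principal GENCODE M21 transcripts. The members and lists were chosen with earlier results of these data known. Named beside the members were called genes of the companion lists and up to 3 others of each with the highest CPM, paralogs, and for the member of smallest p in each comparison with WT the 3 genes most like it. Alternatives were RLE normalization, no count filter, 10 counts in every sample, DESeq2 1.42.0, one fit of all 11 samples, a block for the replicate number, CPM over other scalings, and leaving out each sample in turn.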

Additional observations from a re-analysis of the deposited data

Results flagged for a closer look

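The level of Prdx4 differed between Irp1-/- and Irp2-/- testes, by a direct test of one knockout against the other. The log2 fold change was 0.31 (SE 0.079, adjusted p = 0.0325, edgeR), higher in 4 of 4 Irp1-/- samples than in any of the 3 Irp2-/- samples. Against the shared WT samples the values were 0.10 for Irp1-/- and -0.21 for Irp2-/-, neither of which passed the threshold. The call between the knockouts held in 8 of 13 alternatives, and tested X-linked genes had a median of 0.12 there. With the origin of the Irp2-/- line not given, a difference of line and one of genotype cannot be told apart. In 26 sets of 4 samples, the gap between the highest or lowest sample and its neighbour, divided by the range, passed Dixon's 95% critical value in 0.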

How the results depend on the processing

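The count of members called kept within 1.5 times its main value under RLE normalization, both other count filters, DESeq2 and the fit of all 11 samples in every comparison. Leaving out single samples gave 0 to 1 calls for Irp2-/- against WT and 0 to 1 between the knockouts, always Prdx4. Same-numbered samples did not deviate together (r from -0.011 to 0.077 over 7 pairs), so the replicate block has no support from the labels or the data, and it was fitted only as an alternative. With the replicate block 2 members were called for Irp1-/- against WT, Prdx2 (log2 fold change 0.26, adjusted p = 0.0474, edgeR) and Prdx3 (0.45, adjusted p = 0.0135, edgeR), and 0 between the knockouts, where Prdx4 was at 0.20 (adjusted p = 0.0905, edgeR). The same block put Gpx6 at 0.39 (adjusted p = 0.0554, edgeR) and Ncf1 at -0.94 (adjusted p = 0.170, edgeR) between the knockouts, and it moved the calls over all genes from 164 to 439 for Irp1-/- against WT, from 196 to 132 for Irp2-/- against WT and from 763 to 852 between the knockouts. Irp1-/- and WT samples share only the replicate numbers 1 and 2, and so do the knockouts. Samples with other numbers therefore did not inform the genotype difference in those block fits. For Prdx3, replicates 1 and 2 were at 14.9 and 15.3 CPM in Irp1-/- and at 10.5 and 11.6 CPM in WT testes. Other causes were not tested.

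Signs turned only for values near 0. With the block, Prdx3 was at 0.14 for Irp2-/- against WT, and Sod1 and Sod2 were at -0.029 and -0.048 between the knockouts. Over left-out samples the log2 fold change for Irp1-/- against WT ran from -0.027 to 0.013 for Prdx5 and from -0.0054 to 0.034 for Sod1. For Irp2-/- against WT it ran from -0.12 to 0.13 for Prdx3, from -0.025 to 0.034 for Prdx5 and from -0.027 to 0.031 for Sod1, and between the knockouts from -0.037 to 0.022 for Prdx5, from -0.016 to 0.050 for Sod1 and from -0.0050 to 0.049 for Sod2. All 60 levels in CPM under the other scalings moved by less than 1 SD between replicates. Cat, at 172 to 289 counts per sample, and Prdx3, at 187 to 340, had the fewest counts and among the widest intervals.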
